A study of Mus musculus with 16 samples.

Results

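The Myc, Max and Mxd network was followed through the transcript levels of 10 genes, namely Myc, Mycn, Mycl, Max, Mxd1, Mxd3, Mxd4, Mxi1, Mnt and Mlx, chosen by their symbols and all found among the 22114 genes that both count tables list. The cells were sorted DN3 thymocytes (CD4-CD8-CD25+CD44-), the early T-cell progenitors of the mouse thymus that rearrange the T-cell receptor beta gene. In the first experiment, H2B-GFP;Lmo2Tg mice carried an Lmo2 transgene under the CD2 promoter together with a histone H2B-GFP fusion that doxycycline switches on, and they received doxycycline for 6 weeks followed by a chase of 2 weeks. Cells that had kept the label (GFPhi, little division) and cells that had diluted it (GFPlo) gave 3 libraries each, and all 6 libraries carry the Lmo2 transgene. In the other experiment, total DN3 cells came from mice aged 6 weeks that were wild-type (WT, 3 libraries), p21-/- (Cdkn1a deleted, 2 libraries), Lmo2Tg (2 libraries) or Lmo2Tg;p21-/- (2 libraries). All samples are labelled C57BL/6. By the study's account the GFP libraries came from 3 cohorts and sequencing used pooled samples, so p-values measure the spread between pools.

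Myc, Mycn and Mycl are basic helix-loop-helix leucine zipper proteins that bind DNA as dimers with Max and raise transcription of genes for ribosome assembly, metabolism and cell division. Mxd1, Mxi1, Mxd3, Mxd4 and Mnt compete for Max, bind the same E-box and recruit Sin3 corepressors, and Mxd proteins are known for rising as cells leave the cell cycle. Mlx is the Max-like partner of Mlxip and Mlxipl, which respond to glucose metabolites, and it also pairs with some Mxd proteins and Mnt. In thymocytes Myc is known as a direct target of Notch1, and Lmo2 is a T-cell leukemia oncogene.

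The core E-box that these dimers bind, CACGTG, was searched for in RefSeq promoter windows (GRCm38.p6, 250 bases before to 50 bases after each start site). It was present in 7.15% of 32851 windows and in 4 of the 9 members that have an entry. Since these are the promoters of network genes that carry the network's own binding letters, they are shown 5′ to 3′ on the strand of the gene with the E-box in capitals, which reads the same on both strands. The motif starts at position -3 from the start site in Max (chr12:76962229-76962281, minus strand), at -40 in Mlx (chr11:101087220-101087285, plus strand), at -123 in Mnt (chr11:74830771-74830836, plus strand) and at -219 in Mxd4 (chr5:34187894-34187959, minus strand).
Max: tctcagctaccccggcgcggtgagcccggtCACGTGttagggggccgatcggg
Mlx: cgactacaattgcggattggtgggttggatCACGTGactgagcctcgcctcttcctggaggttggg
Mnt: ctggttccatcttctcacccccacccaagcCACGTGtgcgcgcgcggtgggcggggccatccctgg
Mxd4: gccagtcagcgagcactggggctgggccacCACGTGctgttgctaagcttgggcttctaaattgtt
The E2F motif TTTGGCGC was searched for on both strands as well, because E2F factors drive S-phase genes and the experiments differ in cell division. It was present in 0.514% of the windows and, among the members, only in Mycn (chr12:12941967-12942049, minus strand), which holds 2 copies, starting at -183 and -168.
Mycn: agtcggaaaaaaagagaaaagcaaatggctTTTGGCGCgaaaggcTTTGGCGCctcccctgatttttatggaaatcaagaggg
The windows of Mycl, Mxd1, Mxd3 and Mxi1 hold neither motif. Myc has no entry in the promoter table. The 2 motifs do not overlap each other, and a match describes letters in the window, not binding.

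Total counts ran from 26861394 to 31106213 in the GFP libraries and from 13864936 to 16837667 in the genotype libraries, where 3 counts equal 0.0966 to 0.112 and 0.176 to 0.222 CPM (counts scaled to library size by edgeR's TMM method). As a check of the labels, Lmo2 stood at 0.0636 to 0.306 CPM in the libraries without the transgene and at 29.5 CPM or more in all others. Cdkn1a was lower in p21-/- libraries (14.3 and 17.7 CPM against 36.5 to 49.0 CPM in WT) and in Lmo2Tg;p21-/- libraries (4.35 and 3.50 CPM against 32.8 and 26.3 CPM in Lmo2Tg), but its counts were not at 0. GFPhi replicate 3 stood apart from GFPhi replicates 1 and 2, with 285 CPM of Lmo2 against 53.8 and 29.5 CPM and 6.56 CPM of Cdkn1a against 35.8 and 29.9 CPM, so GFP results are given with and without it. All 7 DN3 markers were detected in every group. Their summed level was 6790 to 7570 CPM in GFPhi and 5740 to 6110 CPM in GFPlo, and 4640 to 5230 CPM in libraries with the transgene against 6160 to 6660 CPM in those without it in the genotype experiment.

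Counts were compared between genes per kilobase of annotated exon (CPM per kb). On this scale Myc had the highest level of the network in all 6 groups, from 68.4 ± 8.69 CPM per kb in Lmo2Tg (SD, n = 2) to 126 ± 26.6 CPM per kb in WT (SD, n = 3). In WT it was followed by Max with 30.6 ± 3.12 CPM per kb, Mlx with 20.6 ± 0.684 CPM per kb and Mxd4 with 17.9 ± 0.412 CPM per kb (SD, n = 3 each). Mxd3, with 12.2 ± 1.85 CPM per kb, and Mnt, with 11.7 ± 0.907 CPM per kb, did not differ beyond their spread (SD, n = 3 each). Mxi1 (6.08 ± 0.389 CPM per kb), Mycn (4.01 ± 0.453 CPM per kb) and Mxd1 (2.92 ± 0.0542 CPM per kb) were lower (SD, n = 3 each), and Mycl was near the limit of detection with 1 count in each WT library. In GFPhi, Mlx (34.4 ± 2.26 CPM per kb) and Max (33.2 ± 2.91 CPM per kb) lay within their spread (SD, n = 3 each), as did Mxi1 (9.48 ± 0.828 CPM per kb) and Mycn (8.91 ± 5.20 CPM per kb). In Lmo2Tg, Mycn (5.70 ± 0.447 CPM per kb) and Mxd1 (5.65 ± 1.23 CPM per kb) were level (SD, n = 2 each), while the mean of Mxd1 was the lower of the pair in every other group. Mycl had 0 to 7 counts in each of the 15 libraries, too few to be tested, so 9 members entered each fit. In bulk RNA, fewer cells that express a gene and less RNA per cell cannot be told apart.

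The comparison of GFPhi with GFPlo asks which transcripts go with restricted division. Mxi1 and Mlx were called higher in GFPhi cells (adjusted p under 0.05 in edgeR's quasi-likelihood test, Benjamini-Hochberg over 11581 genes), by less than 1.5-fold. None of the other 7 members passed, and Myc was slightly lower in every GFPhi library. Among all genes 14.9% were called, 5.37% higher and 9.49% lower. The libraries of the groups did not overlap for 6 of the 9 members, against 41.3% of all genes. Without GFPhi replicate 3, where 41.3% of 11745 genes were called (19.5% higher and 21.7% lower), 4 members passed, with Mycn, Mxi1 and Mlx higher and Myc lower. In a fit of all 6 libraries with a replicate block, Mxi1 and Mlx lost their calls (adjusted p = 0.080 and 0.086 in edgeR).

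**Figure D1:**
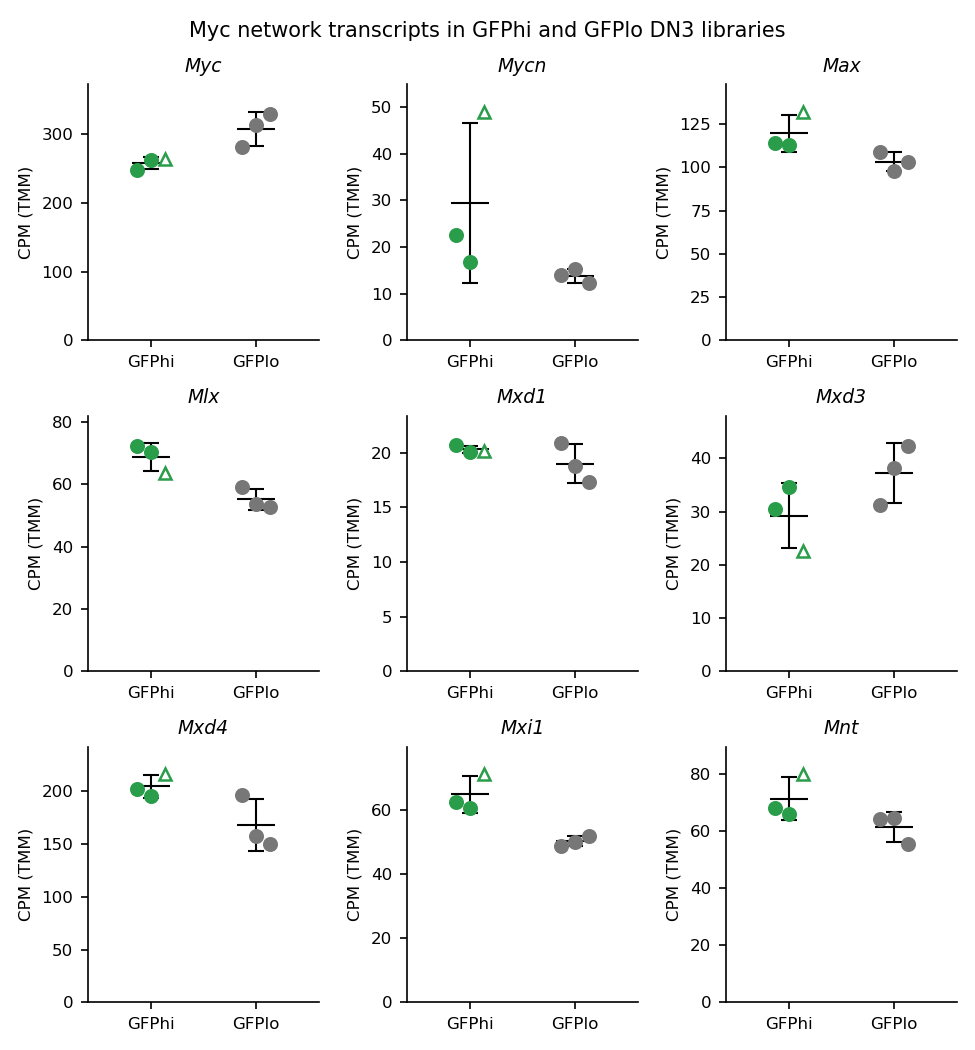
Level of 9 network transcripts (CPM, TMM-scaled, linear axes from 0) in the 3 GFPhi and 3 GFPlo libraries. Each point is a library, the open triangle is GFPhi replicate 3, and bars are mean ± SD. Myc lies lower and Mxi1 and Mlx lie higher in all GFPhi libraries, and the Mycn mean rests on the triangle at 48.9 CPM.

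Myc (chromosome 15 from 61985391 to 61990374, plus strand) had 247, 262 and 263 CPM in the GFPhi libraries and 280, 313 and 328 CPM in the GFPlo libraries. The groups did not overlap, and Myc was lower in all 3 GFPhi libraries. Over the 6 libraries the difference on the log2 scale was -0.25 (standard error 0.08, adjusted p = 0.073 in edgeR), and without GFPhi replicate 3 it was -0.26 (standard error 0.08, adjusted p = 0.032 in edgeR), and over the 12 alternatives the adjusted p ran from 0.019 to 0.26. Myc lies on a chromosome whose genes shifted as a whole in this comparison. The median difference over the 464 tested genes of chromosome 15 was -0.43 on the log2 scale, with quartiles of -0.64 and -0.27, and that over all other chromosomes was 0.03. Of the chromosome 15 genes, 76.1% had a log2 fold change below that of Myc. Without GFPhi replicate 3 the median was again -0.43 and 72.5% lay below Myc. Myc was thus lower in GFPhi cells by less than most genes of its chromosome. No other member lies on chromosome 15 or 2, and the medians of their chromosomes lay between 0.01 and 0.11.

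**Figure D2:**
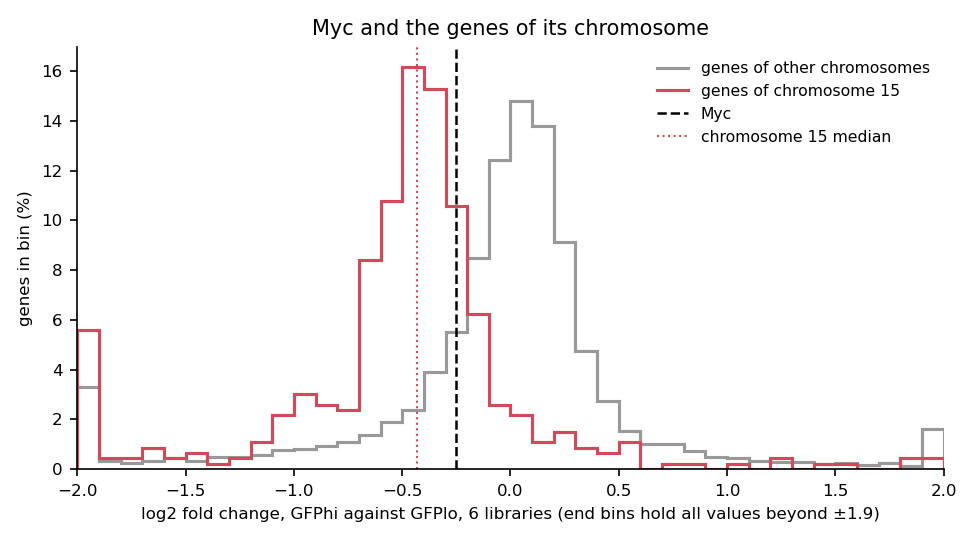
Share of genes (%) in bins of log2 fold change between GFPhi and GFPlo (6 libraries), for genes of chromosome 15 (red) and of all other chromosomes (grey). The dashed line is Myc at -0.25, to the right of the chromosome 15 median at -0.43 (dotted).

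Mycn (chromosome 12 from 12936093 to 12941914, minus strand), the family member with the E2F letters shown above, had 22.5, 16.7 and 48.9 CPM in the GFPhi libraries and 13.9, 15.3 and 12.3 CPM in the GFPlo libraries. Every GFPhi library was above every GFPlo library, and GFPhi replicate 3 was far above the rest. The log2 fold change of 1.08 (standard error 0.40) did not pass with all 6 libraries (adjusted p = 0.12 in edgeR). It was smaller but passed without that library, at 0.51 (standard error 0.15, adjusted p = 0.035 in edgeR), and the range over the 12 alternatives was 0.033 to 0.29. Mycl had 4, 5 and 2 counts in GFPhi and 0, 1 and 0 counts in GFPlo libraries.

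Max (chromosome 12 from 76937269 to 76962201, minus strand), the common partner, had 114, 113 and 132 CPM in GFPhi and 109, 98.0 and 103 CPM in GFPlo libraries. The groups did not overlap, and the log2 fold change of 0.21 (standard error 0.08) did not pass (adjusted p = 0.13 in edgeR).

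Of the antagonists, Mxi1 (chromosome 19 from 53310518 to 53375810, plus strand) had 62.4, 60.6 and 71.1 CPM in GFPhi and 48.7, 50.0 and 51.8 CPM in GFPlo libraries. All GFPhi libraries lay above all GFPlo libraries. It rose by 0.37 on the log2 scale (standard error 0.08, adjusted p = 0.032 in edgeR) and by 0.30 without GFPhi replicate 3 (adjusted p = 0.0070 in edgeR). Leaving out any of the other 5 libraries lost the call, with adjusted p from 0.053 to 0.14 in edgeR. Mnt, the antagonist present in dividing and resting cells alike, had 68.3, 66.2 and 80.2 CPM in GFPhi and 64.3, 64.9 and 55.6 CPM in GFPlo libraries, without overlap, differing by 0.22 on the log2 scale (adjusted p = 0.20 in edgeR). Mxd4 had 202, 195 and 216 CPM against 196, 157 and 150 CPM, where GFPlo replicate 1 fell within the GFPhi range, and its log2 fold change was 0.29 (adjusted p = 0.14 in edgeR). Without GFPlo replicate 1, Mxd4 differed by 0.42 (adjusted p = 0.042 in edgeR, against 0.042 to 0.36 over its 12 alternatives). Mxd1 did not separate the groups, with 20.1 to 20.7 CPM in GFPhi and 17.3 to 20.9 CPM in GFPlo libraries (log2 fold change 0.09, standard error 0.10, adjusted p = 0.55 in edgeR). Mxd3, which is known to peak in S phase, had 22.6 to 34.7 CPM in GFPhi and 31.3 to 42.4 CPM in GFPlo libraries, and its log2 difference was -0.35 (adjusted p = 0.25 in edgeR). Mxd1 and Mxd3, both Mxd genes, thus had differences of opposite sign, and neither passed.

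Mlx (chromosome 11 from 101087277 to 101092207, plus strand) had 72.4, 70.3 and 63.7 CPM in GFPhi and 59.1, 53.8 and 52.9 CPM in GFPlo libraries. The groups did not overlap. It rose by 0.32 (standard error 0.08, adjusted p = 0.045 in edgeR) and by 0.37 without GFPhi replicate 3 (adjusted p = 0.0053 in edgeR). Leaving out any of the other 5 libraries lost the call (adjusted p from 0.064 to 0.18 in edgeR), and so did scaling without the genes of chromosomes 2 and 15 (adjusted p = 0.055 in edgeR). Exons of Mlx share 385 bases with Psmc3ip on the other strand, and those of Mxd3, Mxd4 and Mxi1 share 105, 514 and 194 bases with other genes there, so that without strand their reads cannot be told apart. The 4 members with an E-box window had log2 fold changes of 0.21 (Max), 0.22 (Mnt), 0.29 (Mxd4) and 0.32 (Mlx) in this comparison, and only Mlx was called. Of the 5 other members tested, which include Myc without a promoter entry, Mxi1, Mycn and Mxd1 were also above 0. Among all 11581 genes, 6038 were above 0. In Lmo2Tg against WT, Max (-0.29), Mxd4 (-0.29) and Mlx (-0.15) were below 0 and Mnt (0.29) was above it.

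Some markers of other cells differed between GFPhi and GFPlo libraries. The 8 B-lineage markers summed to 29.0 to 56.7 CPM in GFPhi and 24.6 to 28.2 CPM in GFPlo libraries, with 4 of the 7 tested called higher, and the 6 thymic stroma markers summed to 39.4 to 79.9 CPM in GFPhi and 16.9 to 23.9 CPM in GFPlo libraries. The stroma sum was mostly Epcam, with means of 57.6 CPM in GFPhi and 19.2 CPM in GFPlo. Col1a1 had means of 1.75 and 1.07 CPM, and Foxn1, Psmb11, Krt5 and Pdgfra had at most 0.110 CPM in any library. The 5 later thymocyte markers summed to 67.9 to 157 CPM and 112 to 123 CPM. The 4 NK and innate lymphoid markers summed to 287 to 319 CPM in GFPhi and 226 to 264 CPM in GFPlo libraries, and the 6 myeloid and dendritic markers to 10.4 to 12.4 CPM and 15.4 to 16.5 CPM, both without overlap. Of the 2 NK and innate lymphoid markers tested, Nkg7 was called higher (log2 fold change 0.83), and Gzma was not called (-0.19). No B-lineage marker was at 0 in every library of a group, and 1 stroma marker was at 0 in every library of each. Their part in the differences of the network genes was not tested.

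The genotype experiment asks how the transgene and the loss of p21 change DN3 cells, with 11840 genes tested in a fit of all 9 libraries. Between Lmo2Tg and WT, 4 of 9 members were called, with Mxd1 and Mycn higher and Myc and Max lower, where 36.6% of all genes were called (19.7% higher and 16.9% lower). The groups did not overlap for 7 members, against 60.9% of all genes. The summed level of the 5 later thymocyte markers was 63.5 to 79.6 CPM in Lmo2Tg and 38.9 to 46.5 CPM in WT. B-lineage markers summed to 19.2 to 24.0 CPM against 33.9 to 40.2 CPM, and stroma markers, with 3 of 6 at 0 in every library of either group, to 19.3 to 19.9 CPM against 48.7 to 57.5 CPM. Within these lists the markers moved both ways. Of the 4 B-lineage markers tested, Cd79b was called lower (log2 fold change -0.95) and the other 3 were above 0 without a call. Of the 2 stroma markers tested, Epcam was called lower (-1.46) and the other was above 0 without a call. Of the 5 later thymocyte markers, 2 were called higher and 2 lower. Of the 7 DN3 markers, 5 were called lower, led by Rag2 (-2.33) and Ptcra (-1.90), and 1 was above 0 without a call. Of the 5 myeloid and dendritic markers tested, 2 were called higher (Itgax and Itgam) and 1 lower (Lyz2). Their part in these differences was not tested.

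**Figure D3:**
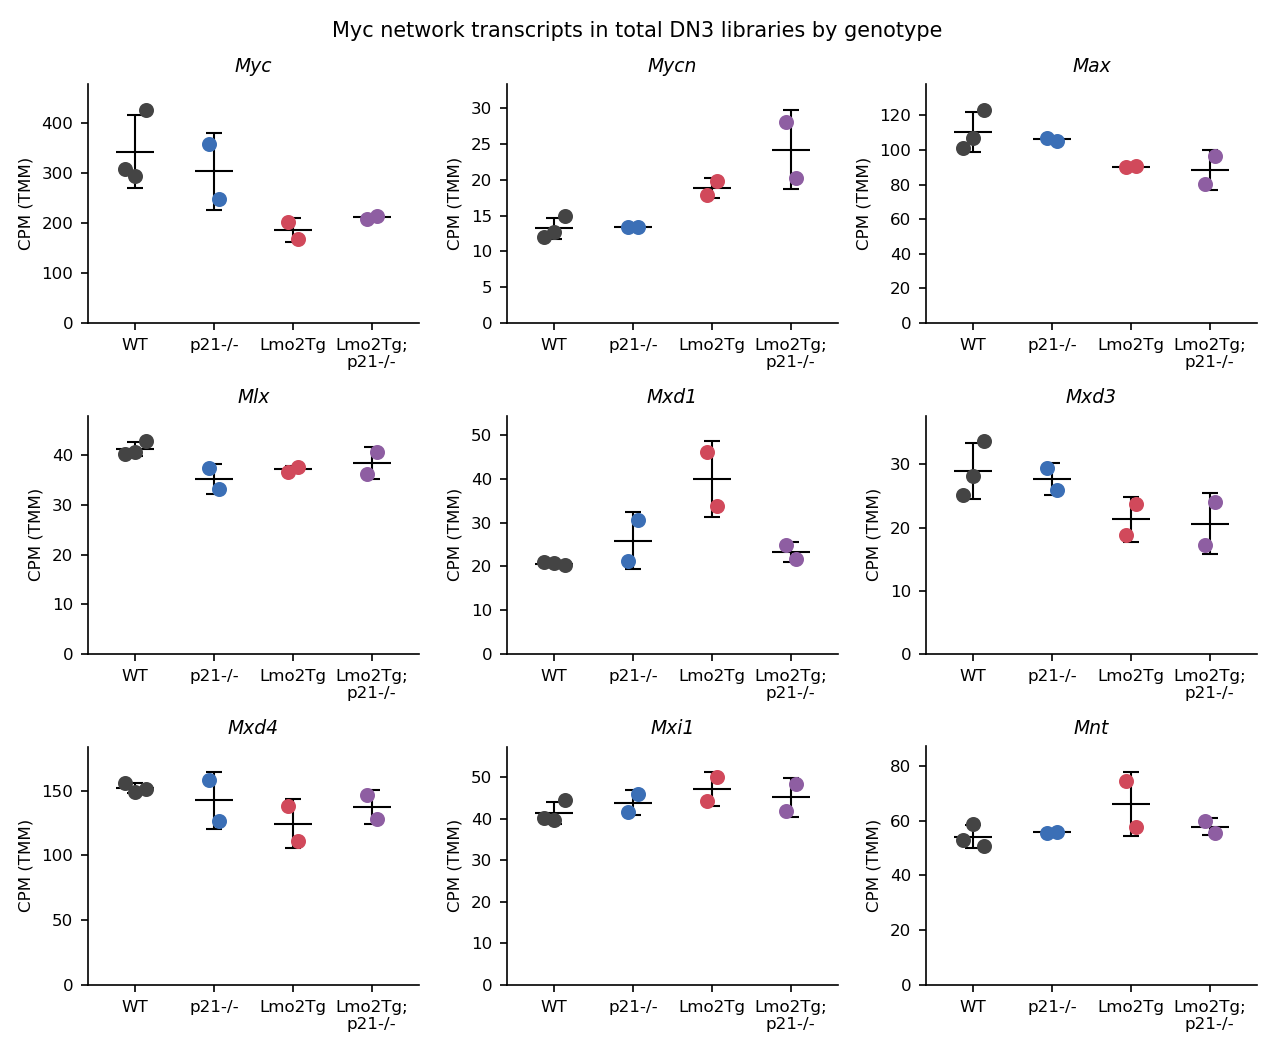
Level of 9 network transcripts (CPM, TMM-scaled, linear axes from 0) in total DN3 libraries of WT (n = 3), p21-/- (n = 2), Lmo2Tg (n = 2) and Lmo2Tg;p21-/- (n = 2) mice. Points are libraries and bars are mean ± SD. Myc is lower and Mycn higher in both transgenic genotypes, and Mxd1 is highest in Lmo2Tg.

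Myc had 203 and 169 CPM in the Lmo2Tg libraries and 308, 294 and 426 CPM in the WT libraries. Both Lmo2Tg libraries lay below all WT libraries. Myc fell by 0.88 on the log2 scale (standard error 0.18, adjusted p = 0.0034 in edgeR), to 0.543 of the WT level. It passed the threshold of 0.05 under all 10 alternatives, with values from -1.02 to -0.70 when a library was left out. The median log2 fold change of chromosome 15 was 0.13 here, and 4.76% of its genes lay below Myc. Mycn had 17.8 and 19.8 CPM in Lmo2Tg and 12, 12.7 and 14.9 CPM in WT libraries, so the sister gene rose by 0.51 (standard error 0.16, adjusted p = 0.026 in edgeR) while Myc fell. Its groups did not overlap. The call of Mycn was lost without either Lmo2Tg library (adjusted p = 0.053 and 0.14 in edgeR) and without WT replicate 1 or 2 (adjusted p = 0.078 and 0.069 in edgeR). Per kb, Mycn made up 6.73% and 8.81% of the summed Myc, Mycn and Mycl level in Lmo2Tg libraries and 2.80% to 3.44% in WT libraries.

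Max had 90.2 and 90.5 CPM in Lmo2Tg and 101, 107 and 123 CPM in WT libraries. It fell by 0.29 (standard error 0.10, adjusted p = 0.047 in edgeR), without overlap. This call was at the threshold and was kept only without WT replicate 1 when libraries were left out (adjusted p = 0.034 in edgeR). Without any of the other 4 libraries it ran from 0.077 to 0.16 in edgeR.

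Mxd1 had 46.1 and 33.8 CPM in Lmo2Tg and 21, 20.7 and 20.3 CPM in WT libraries. Both Lmo2Tg libraries were above the closely grouped WT libraries. Mxd1 rose by 0.95 (standard error 0.16, adjusted p = 0.0012 in edgeR), a 1.93-fold difference, and it passed under all 10 alternatives with values from 0.71 to 1.15. Its share of the summed antagonist level per kb was 12.2% and 10% in Lmo2Tg libraries and 5.47% to 6.04% in WT libraries. The other antagonists did not pass. Mxd3 had 18.8 and 23.8 CPM against 25.1 to 33.7 CPM (log2 fold change -0.44, adjusted p = 0.068 in edgeR), and Mxd4 had 138 and 111 CPM against 149 to 156 CPM (log2 fold change -0.29, adjusted p = 0.074 in edgeR), both without overlap. Mnt, with 74.3 and 57.8 CPM against 50.6 to 58.7 CPM, differed by 0.29 (adjusted p = 0.060 in edgeR), and Mxi1, with 44.2 and 50.0 CPM against 39.7 to 44.5 CPM, by 0.18 (adjusted p = 0.17 in edgeR). Mlx had 36.6 and 37.6 CPM in Lmo2Tg and 40.2 to 42.8 CPM in WT libraries, a log2 fold change of -0.15 (adjusted p = 0.22 in edgeR).

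The same question without p21, Lmo2Tg;p21-/- against p21-/-, gave 1 called member of 9, where 30.7% of all genes were called (16.3% higher and 14.4% lower). Mycn had 28.1 and 20.3 CPM in Lmo2Tg;p21-/- libraries and 13.4 CPM in each p21-/- library. It rose by 0.86 (standard error 0.17, adjusted p = 0.0034 in edgeR), without overlap, and passed under all 9 alternatives, with values from 0.60 to 1.06 when a library was left out. Myc had 208 and 215 CPM against 358 and 249 CPM, again without overlap, and its log2 fold change of -0.52 (standard error 0.19) did not pass (adjusted p = 0.064 in edgeR). Over the 9 alternatives the adjusted p of Myc ran from 0.015 to 0.44, the highest without p21-/- replicate 1, where its log2 fold change was -0.23, and without p21-/- replicate 2 it was -0.76 (adjusted p = 0.025 in edgeR). Max and Mxd3 were lower without overlap as well, by 0.26 and 0.43 on the log2 scale (adjusted p = 0.095 and 0.11 in edgeR). For 4 of 9 members the groups did not overlap, against 70.9% of all genes. Mxd1, with 24.9 and 21.7 CPM against 21.3 and 30.5 CPM, showed no difference beyond its spread (log2 fold change -0.15, standard error 0.18, adjusted p = 0.56 in edgeR). Markers moved here too, with 5 of the 7 DN3 markers called lower. Stroma markers summed to 14.9 to 16.1 CPM against 41.8 to 47.4 CPM, B-lineage markers to 22.1 to 24.8 CPM against 30.5 to 37.0 CPM and NK and innate lymphoid markers to 131 to 148 CPM against 222 to 248 CPM, all without overlap. Single markers of these lists moved both ways. Of the 2 NK and innate lymphoid markers tested, Gzma was called lower (log2 fold change -1.24) and Nkg7 higher (0.53). Epcam (-1.61) was the only stroma marker called, with 1 of 2 tested above 0. Cd79b (-0.61) was the only B-lineage marker called, with 2 of 4 tested above 0. Their part in these differences was not tested.

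Loss of p21 without the transgene changed few genes. Between p21-/- and WT 0.110% of all genes were called and none of the 9 members (adjusted p from 0.98 to 0.99 in edgeR). None was called by DESeq2 or limma-voom either, and 1 member had an unadjusted p under 0.05 in edgeR, namely Mlx with 37.3 and 33.1 CPM in p21-/- and 40.2 to 42.8 CPM in WT libraries (log2 fold change -0.23). Of all 11840 genes, 391 had an unadjusted p under 0.05 in edgeR. Mxd1, with 21.3 and 30.5 CPM, lay above the WT libraries. The groups did not overlap for these 2 members, against 19.5% of all genes. The Myc levels of 358 and 249 CPM in p21-/- overlapped the WT range of 294 to 426 CPM (log2 fold change -0.18, standard error 0.18).

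With the transgene present, loss of p21 went with a lower Mxd1 level. Between Lmo2Tg;p21-/- and Lmo2Tg 6.94% of all genes were called (3.35% higher and 3.59% lower) and 1 member of 9. Mxd1 had 24.9 and 21.7 CPM in Lmo2Tg;p21-/- and 46.1 and 33.8 CPM in Lmo2Tg libraries. The groups did not overlap, and Mxd1 fell by 0.78 (standard error 0.18, adjusted p = 0.031 in edgeR), to 0.584 of the Lmo2Tg level. The call held without Lmo2Tg library b (-0.98, adjusted p = 0.023 in edgeR) and was lost without Lmo2Tg library a (-0.54), Lmo2Tg;p21-/- replicate 1 (-0.89) or replicate 2 (-0.69), with adjusted p of 0.11 to 0.12 in edgeR. In a fit of these 4 libraries alone the adjusted p was 0.057 (edgeR). Mycn (28.1 and 20.3 CPM against 17.8 and 19.8 CPM) and Myc (208 and 215 CPM against 203 and 169 CPM) lay higher without overlap but did not pass, with log2 fold changes of 0.36 and 0.19 (adjusted p = 0.20 and 0.58 in edgeR). For 3 of the members the groups did not overlap, against 54.8% of all genes. The myeloid and dendritic markers summed to 25.6 to 35.3 CPM in Lmo2Tg;p21-/- and 20.2 to 22.5 CPM in Lmo2Tg libraries, without overlap, and 1 of the 5 tested, Lyz2, was called higher, by 1.38, as were the DN3 marker Rag2 and the later thymocyte marker Ccr7, by 1.11 and 1.24 (adjusted p = 0.0031, 0.015 and 0.032 in edgeR). Their part in the Mxd1 difference was not tested.

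The difference between these p21 effects, with the transgene minus without it, was called for 1.38% of all genes and for none of the 9 members in edgeR. For Mxd1 it was -1.10 (standard error 0.25, unadjusted p = 9.8e-04, adjusted p = 0.059 in edgeR), and the other 8 members had adjusted p from 0.30 to 0.98 in edgeR. DESeq2 called Mxd1 (adjusted p = 0.0024) and limma-voom called no member. Over the 13 alternatives Mxd1 was always below 0 and its adjusted p ran from 0.0024 to 0.31.

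**Figure D4:**
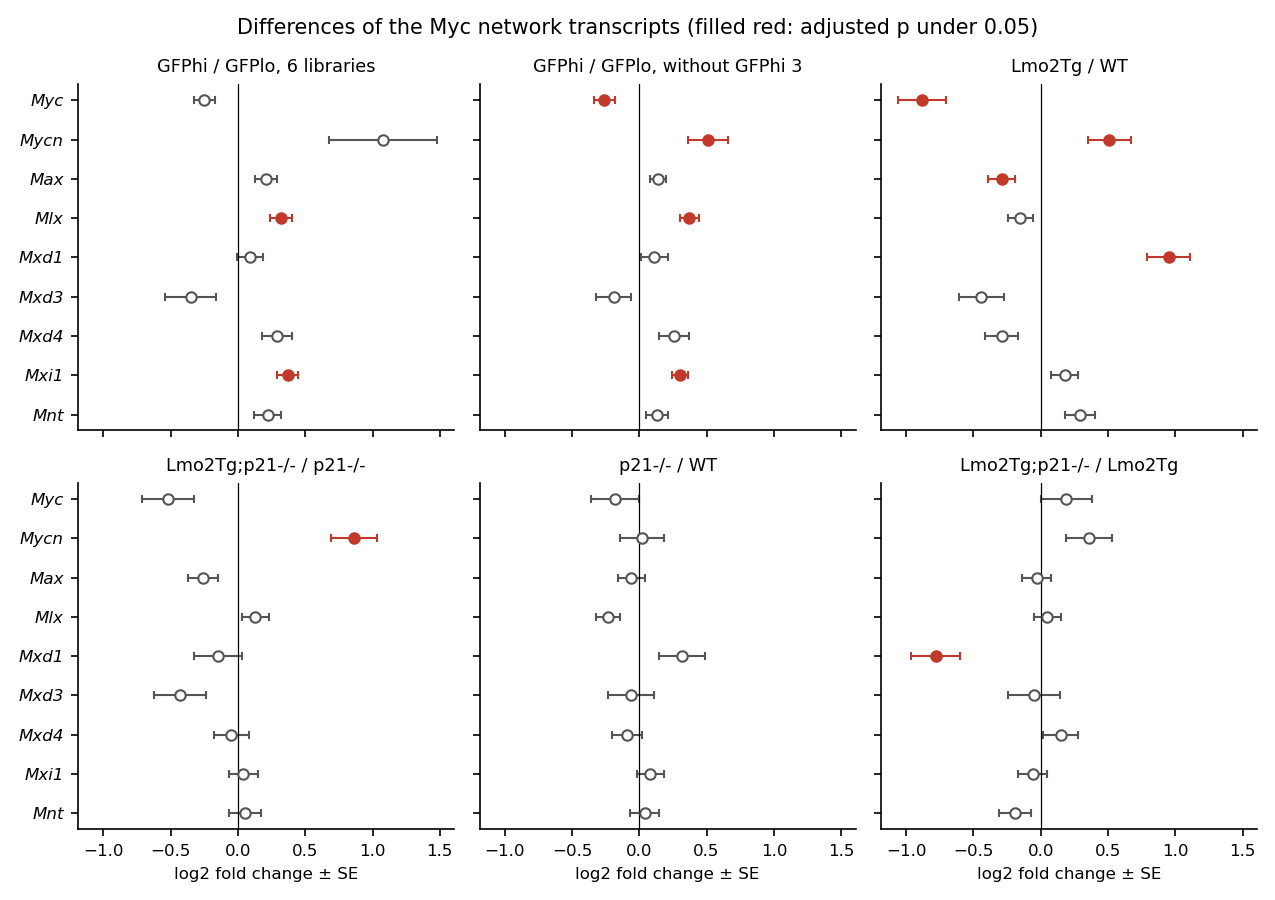
Log2 fold change ± standard error of 9 network transcripts in 6 comparisons, from edgeR. Filled red points passed an adjusted p of 0.05. Myc and Mycn lie on opposite sides of 0 in both comparisons of transgenic with nontransgenic cells, and Mxd1 is at 0.95 in Lmo2Tg against WT and at -0.78 in Lmo2Tg;p21-/- against Lmo2Tg.

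The balance of the network can be described by the summed level of Myc, Mycn and Mycl over that of Mxd1, Mxd3, Mxd4, Mxi1 and Mnt, both in CPM per kb, a measure chosen after the values were seen and given with no test. This ratio was 1.54 to 1.70 in GFPhi and 1.78 to 2.16 in GFPlo libraries. It was 2.21 to 3.08 in WT, 1.95 to 2.60 in p21-/-, 1.43 to 1.51 in Lmo2Tg and 1.80 to 1.81 in Lmo2Tg;p21-/- libraries. GFPhi libraries were thus below GFPlo libraries, and both transgenic genotypes below both nontransgenic ones. The antagonist sum moved little, from 47.2 to 53.2 CPM per kb over the 9 genotype libraries, while the activator sum ran from 68.3 to 161 CPM per kb. In transcripts per kb the sum of Myc, Mycn and Mycl exceeded Max in every library, with Max at 22.3 to 36.6 CPM per kb over all 15.

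Across the 9 genotype libraries, log2 CPM of Max (Pearson r 0.86, Spearman rho 0.88), Mxd3 (0.78 and 0.88) and Mxd4 (0.77 and 0.80) followed Myc, and Mycn (-0.66 and -0.60), Mxd1 (-0.68 and -0.87), Mnt (-0.59 and -0.78) and Mxi1 (-0.54 and -0.48) ran against it. Without the 2 libraries farthest from the median Myc level, r was 0.77 for Max, 0.83 for Mxd3, 0.69 for Mxd4, -0.78 for Mycn, -0.60 for Mxd1, -0.58 for Mnt and -0.59 for Mxi1. These are descriptions, since the libraries fall into those with and those without the transgene, neither set large enough for a correlation of its own. Over the 6 GFP libraries r with Myc was -0.73 for Max, 0.72 for Mxd3, -0.93 for Mxd4, -0.96 for Mlx, -0.87 for Mxd1, -0.70 for Mnt, -0.71 for Mxi1 and -0.59 for Mycn. Mlx had 0.47 over the genotype libraries, and 0.25 without the 2 farthest. Max, Mxd4 and Mlx thus had the opposite sign in the GFP libraries, and Mxd3, Mycn, Mxd1, Mnt and Mxi1 the same. The 5 genes most like Myc over the genotype libraries, among 9599 others with at least 5 CPM on average, were Lgals3bp (r = 0.99), Gtf2h4, Trp53i11, Jmjd8 and Aldh2 (r = 0.98 each). Over the GFP libraries r was -0.45 for Lgals3bp, 0.70 for Gtf2h4, 0.19 for Trp53i11, 0.79 for Jmjd8 and 0.81 for Aldh2.

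Of the remaining proteins of the network, Mlxip, the partner of Mlx, had 198 and 151 CPM in Lmo2Tg and 133, 128 and 110 CPM in WT libraries and rose by 0.49 (adjusted p = 0.012 in edgeR), and it rose by 0.47 in Lmo2Tg;p21-/- against p21-/- (adjusted p = 0.027 in edgeR). Mga did not pass in either comparison, and Mlxipl had too few counts to be tested. Txnip, which restrains glucose uptake and is a target of Mlx with Mlxip, rose by 0.75 and Klf10 by 1.26 in Lmo2Tg against WT (adjusted p = 0.0021 and 1.6e-04 in edgeR), so 2 of the 3 listed targets were called higher, where 19.7% of all genes were. Txnip and Arrdc4 rose by 1.59 and 0.96 in Lmo2Tg;p21-/- against p21-/- (adjusted p = 3.7e-05 and 0.031 in edgeR). In Lmo2Tg;p21-/- against Lmo2Tg, Txnip rose by 0.84 and Klf10 fell by 0.69 (adjusted p = 0.013 and 0.040 in edgeR). In GFPhi against GFPlo, where Mlx itself was called higher, edgeR called none of the 3 targets and 14.9% of all genes. Txnip was at 0.59 there (adjusted p = 0.097 in edgeR), and DESeq2 called 1 target higher and 1 lower. Without GFPhi replicate 3, Txnip was called higher by 0.36 and Klf10 lower by 0.44, where 41.3% of all genes were called.

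Genes that Myc is known to activate, 34 tested of 35 listed, serve mostly ribosome assembly, nucleotide and polyamine synthesis. In Lmo2Tg;p21-/- against p21-/- 24 of them were called lower and none higher, where 14.4% of all genes were called lower, with a median log2 fold change of -0.39 where all genes had 0.00. Odc1, the first enzyme of polyamine synthesis, fell by 0.91, Cad, which starts pyrimidine synthesis, by 0.70, the cyclin gene Ccnd2 by 0.66 and Pa2g4 by 0.61 (adjusted p from 1.6e-04 to 0.013 in edgeR). The count dropped to 9 without Lmo2Tg;p21-/- replicate 1, 11 without p21-/- replicate 1 and 12 without p21-/- replicate 2. In Lmo2Tg against WT, where Myc itself fell most, 5 were called lower and 2 higher, a smaller share than the 36.6% of all genes, with a median of -0.12 against -0.01 for all genes. Ccnd2 fell by 1.14, and Tfrc, the transferrin receptor gene, rose by 0.45 (adjusted p = 3.0e-04 and 0.0065 in edgeR). The count was 2 without Lmo2Tg library a. In Lmo2Tg;p21-/- against Lmo2Tg, 9 were called lower and none higher, where 3.59% of all genes were called lower (median -0.30 against 0.02), led by Odc1, which fell by 1.15 from 228 and 220 CPM to 97.5 and 105 CPM, and Hk2, which fell by 0.73. This count was 6 without Lmo2Tg library a, 2 without Lmo2Tg library b, 1 without Lmo2Tg;p21-/- replicate 1 and 4 without Lmo2Tg;p21-/- replicate 2. Between p21-/- and WT edgeR, DESeq2 and limma-voom called none of the 34, and none had an unadjusted p under 0.05 in edgeR (median -0.06). Lmo2Tg had the lowest mean Myc level of the 4 genotypes. Myc itself did not pass between Lmo2Tg;p21-/- and Lmo2Tg (log2 fold change 0.19, adjusted p = 0.58 in edgeR). The part of Myc in the differences of these targets was not tested.

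In GFPhi against GFPlo none of the 34 activated targets was called in edgeR or limma-voom, 3 were called by DESeq2, and 6 had an unadjusted p under 0.05 in edgeR. Of all 11581 genes, 3871 had an unadjusted p under 0.05 in edgeR, a larger share. Without GFPhi replicate 3, 8 were called higher and 2 lower, a smaller share than the 41.3% of all genes, with Ccnd2 at 0.69 and the chaperone gene Hspd1 at 0.41. The list's median was 0.04 over the 6 libraries and 0.05 without GFPhi replicate 3, against 0.02 and 0.01 for all genes. All 12 proliferation genes had log2 fold changes below 0 (median -0.29), and none was called in edgeR or limma-voom and 3 were by DESeq2. An unadjusted p under 0.05 in edgeR was seen for 3 of them, again a smaller share than over all genes. Without GFPhi replicate 3 the median was -0.14 and Pcna alone was called lower, by 0.26, where 21.7% of all genes were called lower.

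**Figure D5:**
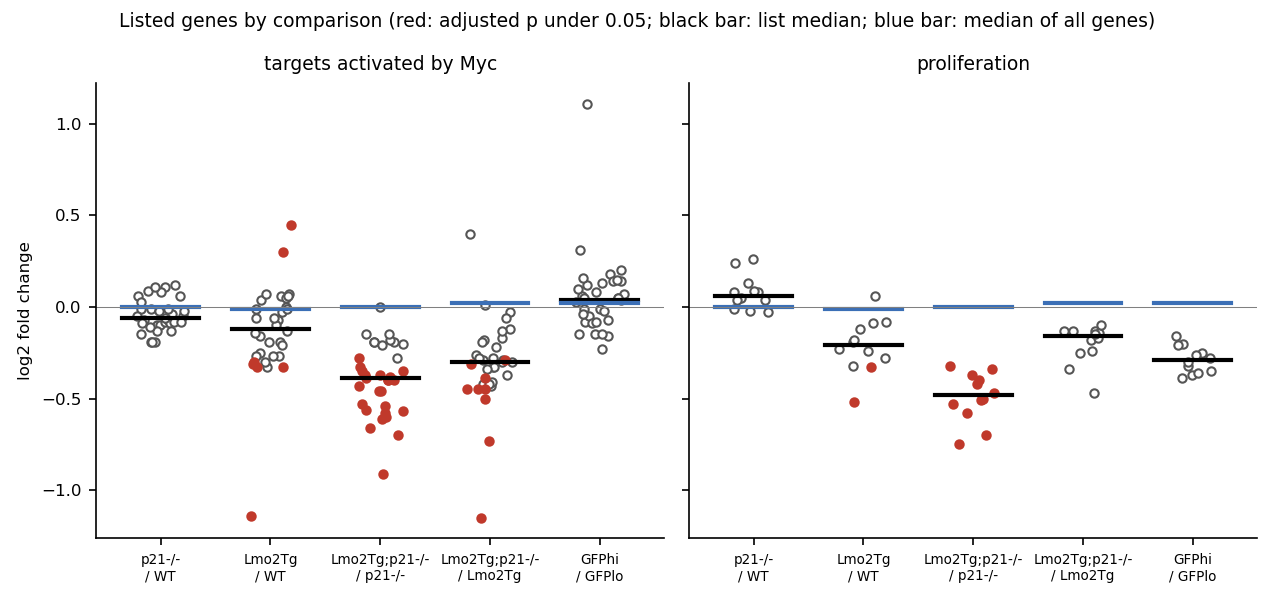
Log2 fold change of each tested gene of 2 lists, targets activated by Myc (34 genes) and proliferation genes (12 genes), in 5 comparisons. Red points passed an adjusted p of 0.05 in edgeR, black bars are list medians and blue bars medians of all genes. Both lists lie lowest in Lmo2Tg;p21-/- against p21-/-, with medians of -0.39 and -0.48.

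All 12 proliferation genes were called lower in Lmo2Tg;p21-/- against p21-/- (median -0.48), led by the cyclin genes Ccnb1 (-0.75) and Ccna2 (-0.70). Without Lmo2Tg;p21-/- replicate 1 none passed in edgeR at a median of -0.33, and without p21-/- replicate 2 there was 1. In Lmo2Tg against WT 2 of the 12 were called lower, Ccnb1 and Mcm2, close to the 16.9% of all genes (median -0.21), and without Lmo2Tg library a edgeR called 0. The part of proliferation in the differences of the network genes was not tested.

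Genes that Myc is known to repress, 7 tested of 8 listed, were mixed. In Lmo2Tg against WT 4 were called higher and 2 lower, where 19.7% of all genes were called higher and 16.9% lower. The cell cycle inhibitor gene Cdkn2b had 20 and 22 counts in Lmo2Tg libraries and at most 1 count in each WT library, Gadd45a and Ndrg2 rose by 1.57 and 1.10, and Ndrg1 fell by 1.44. In Lmo2Tg;p21-/- against p21-/- 3 were called higher and 2 lower, Cdkn1a among them, and in Lmo2Tg;p21-/- against Lmo2Tg Cdkn1a and Gadd45a were called lower. Among all genes 30.7% and 6.94% were called in these comparisons. Cdkn1a is the gene deleted in p21-/- cells, so its call against Lmo2Tg follows from the design and says nothing about Myc targets. Both groups carry the deletion in Lmo2Tg;p21-/- against p21-/-. There the remaining Cdkn1a level was lower by 2.03 on the log2 scale (adjusted p = 5.7e-05 in edgeR), and the cause was not tested. None of the 7 was called in GFPhi against GFPlo by edgeR, DESeq2 or limma-voom, with 2 at an unadjusted p under 0.05 in edgeR, as had 3871 of all 11581 genes. Without GFPhi replicate 3 Cdkn1a and Cdkn2b were called higher and Ndrg1 lower, where 41.3% of all genes were called.

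Of the 7 listed Notch inputs, Lmo2Tg against WT called 3 higher (among them Nrarp by 1.30 and Hes1 by 1.21) and 2 lower (Ptcra, which fell by 1.90, and Notch3, which fell by 1.13), so known Notch targets moved both ways while Myc fell. Among all genes 19.7% were called higher and 16.9% lower there. In Lmo2Tg;p21-/- against Lmo2Tg, Hes1 and Nrarp were called lower, by 1.55 and 1.14 (adjusted p = 0.026 and 0.033 in edgeR). None of the 7 was called higher, and 3.59% of all genes were called lower. A fit of those groups alone called 0 of the 7. In GFPhi against GFPlo Il2ra, which encodes CD25, was called higher by 0.68, and without GFPhi replicate 3 also Dtx1 and Ptcra. Of the Myc cofactors, the helicase genes Ruvbl1 and Ruvbl2 fell by 0.41 and 0.43 in Lmo2Tg against WT, and Bin1 rose by 0.33. Bin1 rose by 0.74 in Lmo2Tg;p21-/- against p21-/-, where Ruvbl1 and Kat2a fell. Of the 8 corepressors 1 was called in Lmo2Tg against WT (Suds3, 0.25) and 1 in GFPhi against GFPlo (Sin3b, which fell by 0.28), and Sap30 and Hdac2 fell by 0.51 and 0.37 in Lmo2Tg;p21-/- against p21-/-. The shares of all genes called in these comparisons were 36.6%, 14.9% and 30.7%. Of the genes for Myc protein turnover, Skp2, a ubiquitin ligase subunit, fell by 0.90 in Lmo2Tg against WT (adjusted p = 0.0013 in edgeR), and in GFPhi against GFPlo Btrc fell by 0.50 while Usp36 rose by 0.27 (adjusted p = 0.0072 and 0.025 in edgeR). Protein levels were not measured.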

How the data were processed

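Sorted DN3 thymocytes were profiled by RNA-seq in 15 libraries that could be tied to a group. The authors deposited whole-number counts of reads per gene in 2 tables. Per the labels, reads were aligned to mm10 with STAR 2.4.2a and counted with featureCounts, and the strand setting is not given in the sources used here. Each table was normalized separately, so levels are not compared between the 2 experiments. Genes were kept by filterByExpr (minimum count 10, minimum total 15), scaled by TMM and tested with edgeR 4.0.16 (quasi-likelihood test, R 4.3.3), without a replicate block, with Benjamini-Hochberg adjustment over all tested genes and a threshold of 0.05. The genotype contrasts came from a fit of all 9 libraries. Alternatives were DESeq2 1.42.0, limma-voom (limma 3.58.1), RLE scaling, no filter, each library left out and others given in the closing section. The alternatives counted for single members all kept the threshold of 0.05 and set no fold limit. A fold above 2 and an adjusted p under 0.01 were applied to the calls of all genes only. The scripts were tested on simulated data. Levels per kb used the union of annotated exons (GENCODE M21), to which 98.2% of the IDs matched. Counting precision is set by 3 counts, the floor used here.

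Members and gene lists were chosen with earlier results of these data known. All members were named, and up to 4 genes of each list, those called with the largest change or, where none was called, those with the highest mean level. The 5 genes most like Myc were those with the highest Pearson correlation of log2 CPM. No replicate pair agreed within sampling noise. In the counts, 1 column that could not be tied to a sample was not used, and p21-/- replicate 3 was not analysed here. The Lmo2Tg columns do not say which sample each is, so those libraries are called a and b. Same-numbered GFP libraries did not deviate together (correlations 0.07, -0.08 and 0.10), and numbers were not taken as pairs. Some genes of the lists are not reported here.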

Additional observations from a re-analysis of the deposited data

Results flagged for a closer look

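Among the members and the pathway genes described above, the effect of p21 loss differed between cells with and without the Lmo2 transgene for Odc1 and Cdkn1a by a test of the difference itself. For Mxd1 and Il2ra, not called by that test, it went in opposite directions without overlap. Among all genes, 19.5% had no overlap between p21-/- and WT, and 54.8% had none between Lmo2Tg;p21-/- and Lmo2Tg. The log2 effect of p21 loss on Mxd1 without the transgene ran from 0.04 to 0.56 when a library was left out. The difference for Mxd1 was -1.10, from 0.32 without to -0.78 with the transgene (unadjusted p = 9.8e-04, adjusted p = 0.059 in edgeR), with no overlap on either side. For Odc1 it was -1.21 (standard error 0.15, adjusted p = 0.016 in edgeR), from 0.06 to -1.15, and no activated target of Myc was called by edgeR in 4 of the 9 fits that left out a library (without Lmo2Tg;p21-/- replicate 1 or 2, or WT replicate 1 or 3). For Cdkn1a, the deleted gene, it was -1.56 (standard error 0.27, adjusted p = 0.032 in edgeR), from -1.36 to -2.92, and no repressed target, Cdkn1a included, was called by limma-voom or in 7 of those 9 fits, all but those without Lmo2Tg library b or p21-/- replicate 1. For Il2ra it was 0.21 (adjusted p = 0.38 in edgeR), from -0.13 to 0.09, again with no overlap on either side.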

How the results depend on the processing

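Of 567 values of the members under other settings, 492 kept their direction and side of the threshold, 28 lost a call, 20 gained one, 27 changed sign without ever being called, and none that was called reversed. The calls of all genes between GFPhi and GFPlo numbered 1721, and 2913 with DESeq2, 731 with a fold above 2, 403 at an adjusted p under 0.01, and 273 to 4848 when a library was left out, the lowest without GFPlo replicate 2 and the highest without GFPhi replicate 3. Scaling without the genes of chromosomes 2 and 15 gave 1649 calls. For p21-/- against WT, 13 calls became 21 without the filter, 20 with DESeq2 and 8 to 18 with a library left out. For Lmo2Tg;p21-/- against Lmo2Tg, 822 became 222 with the fold limit, 172 at 0.01, 404 in a fit of the 2 groups and 60 to 514 with a library left out, the lowest without Lmo2Tg;p21-/- replicate 1. For Lmo2Tg against WT, 4329 became 1420 with the fold limit, 2550 at 0.01 and 2815 to 3836 with a library left out. For Lmo2Tg;p21-/- against p21-/-, 3639 became 1230 with the fold limit, 2020 at 0.01 and 1914 to 3179 with a library left out. For the difference of the p21 effects, 163 became 520 without the filter, 458 with DESeq2, 95 with the fold limit, 0 at 0.01 and 0 to 449 with a library left out. The cause was not tested.

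With a replicate block, GFP calls numbered 496, p21-/- against WT 16 and Lmo2Tg;p21-/- against p21-/- 4264, and Mxi1 (0.36, adjusted p = 0.080 in edgeR) and Mlx (0.32, adjusted p = 0.086 in edgeR) lost their GFP calls. No block was fitted for the other contrasts, because the Lmo2Tg columns carry no usable numbers. With 2 or 3 libraries per group, small differences were not detectable at this depth.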
